A study of Rattus norvegicus with 17 samples.

Results

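The genes described here are Nqo2 and 9 other genes of the NRF2 antioxidant program, which are Nqo1, Hmox1, Gclc, Gclm, Txnrd1, Srxn1, Slc7a11, Nfe2l2 and Keap1. They were taken by gene symbol from a table of 34322 genes, and all 10 were found there. Nqo2 was included because it was already known to be higher in ethanol-exposed rats of this series, so its differences between diets are given as a description and without a test. The question was whether the other 9 genes moved with it. Expression was measured by RNA-sequencing in the hippocampus of 17 adolescent Long-Evans rats aged 36 to 38 days. The mothers of ET rats received a liquid diet with 6.7% ethanol (36% of calories) from gestational day 0 to day 20, those of PF rats were pair-fed a matched liquid diet without ethanol, and those of AD rats ate chow ad libitum. The ET group held 3 males and 2 females, and the PF and AD groups held 3 males and 3 females each. All rats of a diet came from 1 litter, so a difference between diets cannot be told apart from a difference between litters, and p-values measure only the spread between littermates.

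NRF2, the product of Nfe2l2, is a transcription factor that is held in the cytoplasm and marked for degradation by KEAP1. When reactive compounds modify KEAP1, NRF2 accumulates, enters the nucleus, pairs with small MAF proteins and binds antioxidant response elements near genes for glutathione synthesis, thioredoxin reduction, quinone reduction and haem breakdown. In the brain this program is best known from astrocytes. Nqo1 and Nqo2 encode related quinone reductases, of which NQO1 uses NADPH or NADH and NQO2 uses dihydronicotinamide riboside.

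Promoter sequences were examined because the genes are grouped by a shared binding element. RefSeq windows on build GRCr8, from 250 bases before to 50 bases after the gene start, were listed for 9 of the 10 genes, and Txnrd1 had 2 windows. The core of the antioxidant response element was searched as TGACNNNGC on either strand. Of the 10 windows of these genes, it was present in 1 each for 3 genes, and 12.1% of 33469 windows of all genes held it. The matches are shown with up to 10 flanking bases, in the orientation that spells the motif, with the motif in capitals.
Gclm, chr2:213031953-213031981, gene on the plus strand, motif on the opposite strand to the gene and starting at position -172 from the gene start: tggaagacaaTGACTAAGCagaaaccgca
Txnrd1, the second window, chr7:22755964-22755992, gene on the minus strand, motif on the opposite strand to the gene and starting at -78: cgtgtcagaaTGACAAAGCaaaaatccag
Nfe2l2, chr3:81028950-81028971, gene on the minus strand, motif on the same strand as the gene and starting at 38: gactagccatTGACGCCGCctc
The windows of Nqo2, Nqo1, Gclc, Srxn1, Slc7a11 and Keap1 did not hold these letters. No window was listed for Hmox1. Sequence beyond the windows was not searched, so these genes may hold the element elsewhere. The 250 bases before the start of Nqo2 and Nqo1 are shown side by side because Nqo2 separated the diets and its relative Nqo1 did not. Each is written 5′ to 3′ on the gene's strand, with the letters TGAC and their reverse complement GTCA, the first 4 of the motif, in capitals. This display was chosen after the data had been seen.
Nqo2, chr17:31143663-31143912, minus strand: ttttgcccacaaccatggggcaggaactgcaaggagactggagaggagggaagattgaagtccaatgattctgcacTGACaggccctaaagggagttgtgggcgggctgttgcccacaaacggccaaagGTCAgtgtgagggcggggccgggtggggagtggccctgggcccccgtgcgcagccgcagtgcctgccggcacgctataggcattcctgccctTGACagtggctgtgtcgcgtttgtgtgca
Nqo1, chr19:52220268-52220517, minus strand: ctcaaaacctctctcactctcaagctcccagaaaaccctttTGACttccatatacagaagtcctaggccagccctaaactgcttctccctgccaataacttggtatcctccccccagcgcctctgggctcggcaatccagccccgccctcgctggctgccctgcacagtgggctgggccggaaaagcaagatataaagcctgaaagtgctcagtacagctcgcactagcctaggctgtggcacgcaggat
The Nqo2 stretch held 3 such letter groups and the Nqo1 stretch held 1. At least 1 was found in 80.7% of all 250-base stretches, with a median of 2.

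Libraries held 10853947 to 17498392 assigned fragments. Of the 17, the study left out ET replicate 2, PF animal 11f6 and AD replicate 4, and the 14 others form the final set used here unless stated otherwise. In those 3 libraries the summed normalized counts of 10 choroid plexus markers were 128420 to 149795, against 2842 to 23409 in the final set, and the markers of hippocampal neurons were present in all 17. Levels are given as normalized counts, which are fragment counts scaled to a common library size by the TMM method, and they are compared between libraries of 1 gene only. Sex-linked genes went against the sex label in AD replicates 1 and 2. PF animals 11f5 and 11f6 are named as in the count table because the labels do not give their replicate numbers.

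Nqo2 was highest in ET rats, intermediate in AD rats and lowest in PF rats. In the ET rats it had 77.1, 77.2, 61.3 and 82.0 normalized counts in replicates 1, 3, 4 and 5. In the PF rats it had 20.9, 29.7, 18.3 and 26.9 in replicates 1, 2, 3 and 6, and 23.2 in animal 11f5. The AD rats had 56.6, 42.7, 49.6, 50.3 and 45.4 in replicates 1, 2, 3, 5 and 6. No value of any diet in the final set lay within the range of another diet, and among expressed genes 6.67% had such a gap between ET and PF, 1.25% between ET and AD and 6.64% between PF and AD. The group means were 74.4 ± 9.0 in ET (SD, n = 4), 23.8 ± 4.55 in PF (n = 5) and 48.9 ± 5.3 in AD (n = 5). The fitted log2 fold change of Nqo2 was 1.64 for ET against PF (SE 0.15), 0.61 for ET against AD (SE 0.12) and -1.02 for PF against AD (SE 0.14). Among all genes tested, 0.0436% had a log2 fold change as high or higher in ET against PF, 0.654% in ET against AD, and 0.251% one as low or lower in PF against AD. These comparisons share samples, and the first of them is the one by which Nqo2 was chosen.

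The 3 libraries outside the final set did not all keep this order. ET replicate 2 had 74.2 normalized counts of Nqo2 and AD replicate 4 had 44.9, each within the range of its own diet. PF animal 11f6 had 72.3, which was above every other PF rat and within the range of the ET rats. With all 17 libraries the PF mean became 31.9 ± 20.2 (n = 6), the log2 fold change for ET against PF 1.23 and that for PF against AD -0.60, and only ET and AD still did not overlap. With all 17 libraries the shares of expressed genes without overlap were 5.27% between ET and PF, 0.621% between ET and AD, and 4.92% between PF and AD. Choroid plexus markers were high in all 3 of these libraries, and their part in these Nqo2 levels was not tested.

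Markers of some other cell types moved with Nqo2 between ET and PF. The summed counts of 3 oligodendrocyte markers were 215716 to 273924 in ET, 154391 to 214301 in PF and 181840 to 253307 in AD. Those of 3 blood genes were 7518 to 10318 in ET, 3414 to 7472 in PF and 7608 to 10910 in AD, and those of 4 thalamic genes were 531 to 1356 in ET, 335 to 508 in PF and 480 to 696 in AD. ET and PF thus did not overlap for these 3 lists, while AD overlapped both for oligodendrocyte and thalamic genes and overlapped ET for blood genes, unlike Nqo2. Among single expressed genes, 6.67% had such a gap between ET and PF. The thalamic list includes Shox2, which the study called higher in ET than in PF, so the gap in that sum supports nothing by itself. No gene of any list was at 0 in every library. Summed counts of microglial, astrocyte, endothelial and hippocampal neuron markers overlapped between ET and PF. In PF animal 11f6 the oligodendrocyte sum was 173626, the blood sum 10126 and the thalamic sum 1206. The part of these cell types in the Nqo2 difference was not tested, and in bulk tissue fewer cells of a type and less RNA per cell cannot be told apart.

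**Figure D1:**
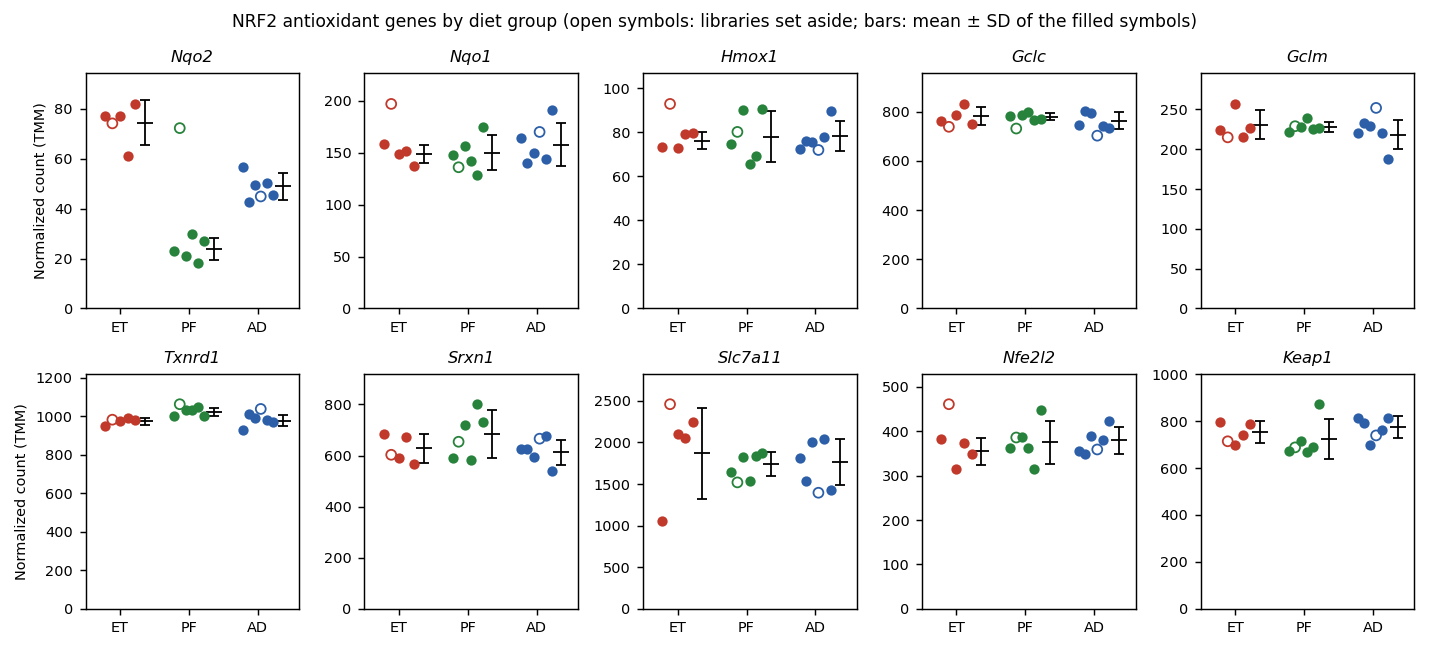
Normalized counts (y axes, starting at 0, with a scale for each gene) of the 10 genes in ET, PF and AD rats. Filled symbols are the 14 libraries of the final set, open symbols the 3 others, and bars the mean ± SD of the filled symbols. Nqo2 falls into 3 separate levels with means of 74.4, 23.8 and 48.9 and with 1 open PF symbol at 72.3, whereas the diets lie over each other for the other genes except the narrow gap between ET and PF for Txnrd1.

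None of the 9 other genes passed the test between diets. All 9 passed the filter on low counts in each comparison, and 0 had an adjusted p below 0.05 in edgeR's quasi-likelihood test with Benjamini-Hochberg adjustment in ET against PF, where 4.13% of all genes passed, in ET against AD (0.0127% of all genes) or in PF against AD (5.17%). In each comparison 0 of the 9 also had an unadjusted p below 0.05, and DESeq2 called 0. At the study's threshold (adjusted p below 0.01 and a log2 fold change above 1.5 in size) 0 of the 9 passed, against 2.17%, 0.0127% and 2.05% of all genes in the same order. Their log2 fold changes ran from -0.13 to 0.10 in ET against PF, from -0.10 to 0.08 in ET against AD and from -0.10 to 0.16 in PF against AD. Of the 9, 4 lay above 0 and 5 below 0 in each comparison. The median absolute log2 fold change of the 9 genes was 0.06, 0.04 and 0.06 in the same order, and that of all genes tested was 0.09, 0.06 and 0.09. The 95% intervals of 8 genes stayed within 0.5 of 0 when ET was compared with PF or with AD, the exception being Slc7a11 with bounds reaching 0.50 and 0.52, and those of all 9 did so in PF against AD. A change the size of that of Nqo2 in ET against PF lay outside the interval of each of the 9 genes.

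**Figure D2:**
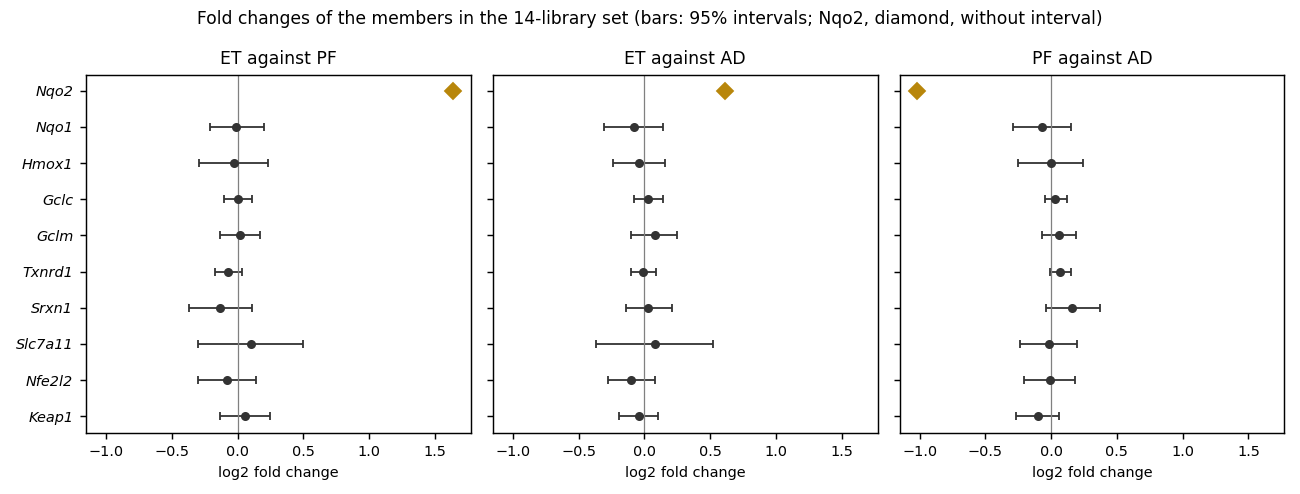
Log2 fold changes (x axes) of the 10 genes (rows) for ET against PF, ET against AD and PF against AD in the 14-library set, with 95% intervals for the 9 genes that were tested. Nqo2 is drawn as a diamond without an interval because it was chosen for its difference, at 1.64, 0.61 and -1.02, and the other genes stay between -0.13 and 0.16 with intervals that all include 0.

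Nqo1, the closest relative of Nqo2 and the classical NRF2 target, did not separate the diets. In ET replicates 1, 3, 4 and 5 it had 158, 149, 152 and 137 normalized counts. In PF replicates 1, 2, 3 and 6 it had 156, 142, 129 and 175, with 148 in PF animal 11f5, and in AD replicates 1, 2, 3, 5 and 6 it had 164, 140, 150, 144 and 191. The 3 diets overlapped, with means of 149 ± 8.9 (SD, n = 4), 150 ± 17.1 (n = 5) and 158 ± 20.4 (n = 5). Nqo1 had a log2 fold change of -0.01 in ET against PF, with a 95% interval of -0.21 to 0.20 and an adjusted p of 0.992. In PF animal 11f6, where Nqo2 was at the ET level, Nqo1 had 136, within the range of the other PF rats. Hmox1, which encodes the haem-degrading enzyme haem oxygenase 1, ranged from 72.6 to 79.7 in ET, 65.4 to 90.6 in PF and 72.2 to 89.7 in AD. For Hmox1 the log2 fold change in ET against PF was -0.03, with an interval of -0.29 to 0.23.

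The 3 genes that serve glutathione synthesis overlapped between all diets. Gclc and Gclm encode the catalytic and modifier subunits of glutamate-cysteine ligase, the rate-limiting enzyme of the pathway. Gclc had 751 to 831 normalized counts in ET, 765 to 797 in PF and 734 to 802 in AD, and Gclm had 216 to 257, 222 to 239 and 188 to 233. The log2 fold change in ET against PF was 0.00 for Gclc, with an interval of -0.10 to 0.11, and 0.02 for Gclm, with an interval of -0.13 to 0.17. Slc7a11, the cystine transporter subunit that supplies cysteine for glutathione, had the widest spread of the 10 genes within a diet, with a coefficient of variation of 29.1% in ET. In the ET rats it had 1061.4 normalized counts in replicate 1 against 2106.5, 2058.9 and 2247.5 in replicates 3, 4 and 5, while the PF rats had 1534.0 to 1872.9 and the AD rats 1424.2 to 2045.3. Slc7a11 had a log2 fold change of 0.10 in ET against PF, with an interval of -0.30 to 0.50, 0.29 when ET replicate 1 was left out and -0.29 with the replicate number as a block. The block value rests on the 2 replicate numbers that ET and PF share, and ET replicate 1 is in 1 of these pairs.

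Txnrd1 and Srxn1 belong to the systems that reduce thioredoxin and peroxiredoxins. Txnrd1, the cytosolic thioredoxin reductase, was the only other gene of the 10 whose ET and PF rats did not overlap, and here the order was the opposite of that of Nqo2. It had 949, 976, 989 and 983 normalized counts in ET replicates 1, 3, 4 and 5. In PF replicates 1, 2, 3 and 6 it had 1034.7, 1032.6, 1047.8 and 1001.2, with 1000.8 in animal 11f5. The highest ET rat and the lowest PF rat lay close together, and the gap remained with all 17 libraries, where ET replicate 2 had 982 and PF animal 11f6 had 1062.4. Such a gap was present in 6.67% of expressed genes in the final set and 5.27% with all 17 libraries, so 1 of 9 genes is near the background. For Txnrd1 the difference did not pass the test, with a log2 fold change of -0.07 (SE 0.04) and an adjusted p of 0.639. The AD rats, at 931 to 1010.9, overlapped both. Srxn1, which encodes sulfiredoxin, had 567 to 683 in ET, 584 to 801 in PF and 540 to 675 in AD. Its log2 fold change in PF against AD, 0.16 with an interval of -0.04 to 0.37, was the largest of the 9 genes in the 3 comparisons of diets.

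The levels of the regulators overlapped between all diets. Nfe2l2 had 316 to 383 normalized counts in ET, 315 to 449 in PF and 348 to 424 in AD. Keap1 had 696 to 798, 669 to 872 and 700 to 815. The log2 fold change in ET against PF was -0.08 for Nfe2l2, with an interval of -0.30 to 0.14, and 0.06 for Keap1, with an interval of -0.13 to 0.25. The rat with the highest level of both genes in the PF group was replicate 6, whose Nqo2 level of 26.9 was within the range of its group. These are mRNA levels, and NRF2 is regulated largely through the stability of the protein, which was not measured. With left hippocampi alone, Keap1 fell by 0.23 on the log2 scale in PF against AD (adjusted p = 0.0287), while in the final set it was at -0.10 with an adjusted p of 0.572.

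Sex was compared across the 9 ET and PF rats of the final set, since the sex labels of 2 AD rats were in doubt. In edgeR 0 of the 10 genes differed between males and females, against 0.0425% of all genes, and 0 had an unadjusted p below 0.05. DESeq2 likewise called 0. Nqo2 had a log2 fold change of -0.01 for males against females, with a 95% interval of -0.38 to 0.35 and an adjusted p of 1. The other 9 genes lay between -0.08 (Gclm) and 0.21 (Slc7a11). The test of whether the ET and PF difference depended on sex passed for 0 of the 10 genes in edgeR and in DESeq2, again with 0 at an unadjusted p below 0.05, and for 0.0% of all genes. For Nqo2 that interaction was -0.24 on the log2 scale, with an interval of -1.01 to 0.53.

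Whether Nqo2 and the other genes rose and fell together from rat to rat was tested after subtracting each diet's mean, so that the diet difference by which Nqo2 was chosen did not enter. Over the 14 rats, 0 of the 9 correlations of log2 normalized counts passed an exact two-sided permutation test within diets (345600 arrangements) after Benjamini-Hochberg adjustment over the 9. Txnrd1 had the lowest, with Pearson's r of -0.54 (exact p = 0.0518, adjusted 0.466) and Spearman's rho of -0.61 (exact p = 0.0329, adjusted 0.296). PF replicate 3 and ET replicate 4 were the rats whose Nqo2 value, after subtraction of diet means, was farthest from the median. Without them r for Txnrd1 was -0.42, and with all 17 libraries it was 0.08. Leaving out 1 rat at a time gave r for Txnrd1 from -0.72 (without PF replicate 2, exact p = 0.0106, adjusted 0.0951) to -0.44 (without AD replicate 1). Srxn1 followed with r of -0.46 (exact p = 0.185, adjusted 0.599) and rho of -0.40 (exact p = 0.224, adjusted 0.723), and without the same 2 rats r was -0.18. The 7 remaining genes had r between -0.29 (Gclc) and 0.29 (Gclm), with unadjusted exact p-values of 0.264 or more. For Nqo1, r was 0.20 (exact p = 0.547, adjusted 0.707) and rho 0.25 (exact p = 0.431, adjusted 0.723), and without the 2 rats r was -0.01. The middle 90% of all genes had r between -0.43 and 0.48 with Nqo2, a range that held 7 of the 9 genes.

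**Figure D3:**
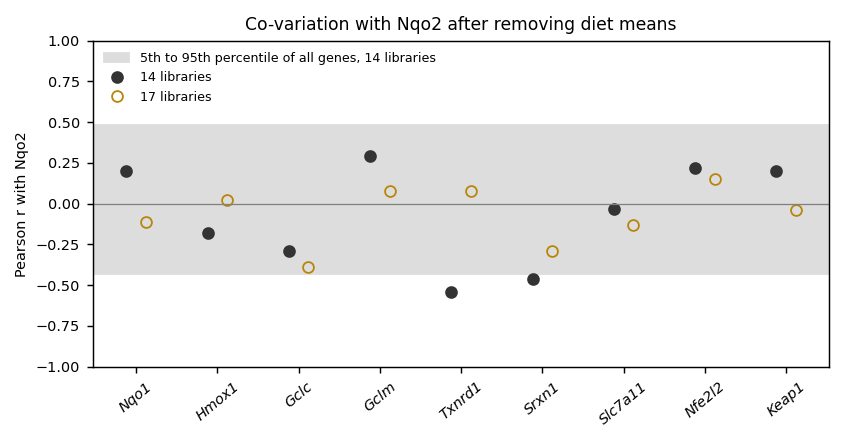
Pearson's r with Nqo2 (y axis, from -1 to 1) of each of the 9 other genes (x axis) after removal of diet means. Filled symbols are the 14 libraries of the final set, open symbols all 17, and the grey band spans the 5th to 95th percentile of all genes in the 14 libraries. Txnrd1 moves from -0.54 to 0.08 when the 3 other libraries are added, and Nqo1 from 0.20 to -0.11.

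Genes whose pattern over all 17 libraries was most like that of Nqo2 were taken from a ranking of 16264 expressed genes by Pearson's r of log2 normalized counts. These values are a description, and they share the libraries, depth and diet structure. The first 5 were Serpinb6a (r = 0.84), LOC108349099 (0.83), Jam3 (0.83), Hbb-b1 (0.81) and LOC100362980 (0.80), and the last 5 were LOC120102418 (-0.84), LOC103691475 (-0.82), Cebpzos (-0.81), Serpinb1b (-0.80) and LOC102548672 (-0.80). These values carry the differences between diets. After subtraction of diet means in the 14 libraries, the first 5 had r between 0.36 and 0.52 and the last 5 between -0.37 and 0.23, with 0.44 for Serpinb6a and -0.34 for Serpinb1b. None of the 9 NRF2 genes was among these first or last 5. Keap1 stood highest of the 9, at rank 4733 with r of 0.19, and Txnrd1 lowest, at rank 15210 with r of -0.49. Serpinb6a and Serpinb1b, both serine protease inhibitors of the serpin B clade, are on chromosome 17 near Nqo2, and Hbb-b1 encodes a beta-globin of red blood cells.

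The genes around Nqo2 were therefore read library by library. In the GRCr8 gene list, used for names and order only, Serpinb6a overlaps Nqo2, with Tubb2a, Bphl and Ripk1 as the nearest expressed genes on one side and LOC102554685, Serpinb1b and Serpinb9 on the other. Reads were allowed to count for more than 1 feature, so those in the shared stretch may enter both Nqo2 and Serpinb6a. Serpinb6a had 370, 257, 294 and 322 normalized counts in ET replicates 1, 3, 4 and 5. The PF rats of the final set had 190 to 245 and the AD rats 259 to 294. PF animal 11f6 had 390, the highest of the 17 libraries, so Nqo2 and Serpinb6a were both above every other PF rat in that animal.

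Serpinb1b ran the other way. It had 19.7, 25.5, 23.8, 18.6 and 21.9 normalized counts in the 5 PF rats of the final set and 5.78 to 12.6 in the AD rats. In the ET rats it had 0.671, 2.14, 12.6 and 0.323 in replicates 1, 3, 4 and 5. PF animal 11f6 had 1.77, and the highest ET value belonged to replicate 4, the rat with the lowest Nqo2 of its group. Bphl, which encodes a serine hydrolase, had 107 to 153 in ET, 155 to 196 in PF and 137 to 159 in AD, with 102 in PF animal 11f6. Tubb2a had 4818.0 to 6286.5 in ET and 5426.7 to 6433.4 in PF, which overlap, and 5026.7 in PF animal 11f6. For Serpinb6a, Serpinb1b, Bphl and Tubb2a, PF animal 11f6 thus lay outside the range of the other PF rats and on the ET side. This did not hold for Ripk1 (151 in the animal against 138 to 173 in the other PF rats), LOC102554685 (85.1 against 71.5 to 95.7) or Serpinb9 (231 against 220 to 311), which were within the PF range. It did hold for genes of the likeness list outside the region, such as Jam3 (800 against 601 to 699) and Hbb-b1 (688 against 294 to 551). That ranking included PF animal 11f6, for Serpinb6a and Serpinb1b too, so these values are part of how the genes were picked. Whether the shift was particular to the genes near Nqo2 was not tested. The 2 other libraries outside the final set also left their diets for some of these genes. ET replicate 2 had 166 counts of Bphl, above the other ET rats and within the PF range. AD replicate 4 had 171 of Bphl and 317 of Serpinb6a, above the other AD rats in both.

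Since this region was read because genes in it ranked at the ends of the likeness list, and Nqo2 was chosen for its ET and PF difference, the neighbours' fold changes are given without a test. In ET against PF, Serpinb1b was at -2.47 on the log2 scale (SE 0.57), Bphl at -0.52 (SE 0.12) and Tubb2a, Ripk1, LOC102554685 and Serpinb9 between -0.18 and 0.04. In PF against AD, Serpinb1b was at 1.21 (SE 0.18) and Bphl at 0.25 (SE 0.07), with the other 4 between -0.01 and 0.15. Without ET replicate 4 the value of Serpinb1b in ET against PF was -4.35, and with the replicate number as a block it was -3.83. With all 17 libraries, which adds ET replicate 2, PF animal 11f6 and AD replicate 4 together, the values in ET against PF were -1.92 for Serpinb1b and -0.32 for Bphl, and those in PF against AD were 0.94 and 0.10. As each diet was 1 litter, litter and diet cannot be told apart for these genes either.

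**Figure D4:**
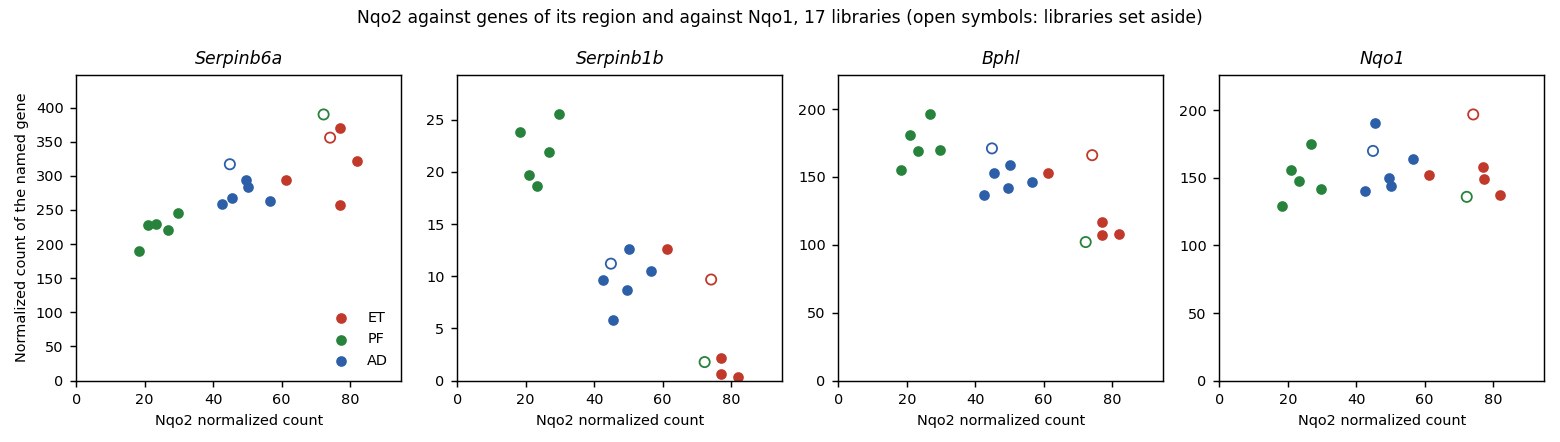
Normalized counts of Serpinb6a, Serpinb1b, Bphl and Nqo1 (y axes) against those of Nqo2 (x axis) in 17 rats, coloured by diet, with open symbols for the 3 libraries outside the final set. The open PF symbol, with 72.3 counts of Nqo2, lies apart from the other PF rats for Serpinb6a (390, above every ET rat), Serpinb1b (1.77, within the ET range) and Bphl (102, below every ET rat), and lies among them for Nqo1 (136).

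The wider NRF2 pathway was read from a list of 54 further genes, of which 47 to 49 could be tested between diets. In ET against PF, 0 were higher and 2 were lower, against 0.541% and 3.59% of all genes. Ugt1a6, which is among these 2, passed the filter on low counts only through the PF rats, where it is high, so its calls had to show a difference and support nothing. In ET against AD, 0 were higher and 1 was lower (0.0% and 0.0127% of all genes), and DESeq2 called 1 higher and 1 lower. In PF against AD, 2 were higher, again with Ugt1a6 among them, and 1 was lower (4.32% and 0.846%). The median log2 fold change of the listed genes was 0.03, -0.02 and -0.03 in the same order. In ET against PF, 2 of the 49 genes tested passed. Both were already known as calls of the study when the list was fixed, so this share cannot be read against that of all genes.

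The genes called in ET against PF or ET against AD were Akr1b10 and Ugt1a6. Akr1b10, an aldo-keto reductase, had 127, 91.3, 120 and 115 normalized counts in ET replicates 1, 3, 4 and 5, and 359 to 697 in PF and 355 to 440 in AD. It fell by 1.96 on the log2 scale in ET against PF (adjusted p = 0.000186) and by 1.81 in ET against AD (adjusted p = 7.93e-05), opposite to Nqo2 in both. With the replicate number as a block, adjusted p for Akr1b10 was 0.00299 against PF, while against AD the call was lost (adjusted p = 0.0669). Ugt1a6, a glucuronosyltransferase, had 0.968 to 5.49 in ET, 13.8 to 18.6 in PF and 0.385 to 2.01 in AD, so that it was too low to be tested in ET against AD. Its log2 fold changes, given as a description, were -2.73 in ET against PF and 3.49 in PF against AD. Its counts in the 3 libraries rich in choroid plexus markers were 13.7 in ET replicate 2, 35.4 in PF animal 11f6 and 10.1 in AD replicate 4, above all others of their diets. Reads of Akr1b10 and Ugt1a6 can be split with close relatives of their families, which makes these counts uncertain. Both genes were already known to differ in this series.

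Cbr1 and Mgst1 completed the calls. Cbr1, a carbonyl reductase that also reduces quinones, had 117 to 143 normalized counts in ET, 94.6 to 127 in PF and 61.7 to 83.4 in AD. It rose in PF against AD (log2 fold change 0.64, adjusted p = 0.0023), and in ET against AD it had 0.78 with an adjusted p of 0.0751 in edgeR and 0.000155 in DESeq2, making it the gene that DESeq2 alone called higher there. Mgst1, a microsomal glutathione transferase, had 72.8 to 102 in PF and 102 to 145 in AD and was lower in PF (log2 fold change -0.52, adjusted p = 0.0366). The Mgst1 call was lost with sex as a covariate (adjusted p = 0.0708), with left hippocampi alone (0.101) and without PF replicate 1 or 2, PF animal 11f5 or AD replicate 3, 5 or 6 (0.0721 to 0.0971). The sex covariate used the labels, which sex-linked genes went against in AD replicates 1 and 2. Between ET and PF, Cbr1 was at 0.14 and Mgst1 at 0.12, neither of which passed.

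No gene of the other groups passed between ET and PF. None of the 12 genes tested for glutathione use, 8 for thioredoxin and peroxide removal, 6 for NADPH supply, 5 for iron and haem and 10 regulators passed in edgeR or in DESeq2, with 2 at an unadjusted p below 0.05. These were Prdx6, a peroxiredoxin that reduces lipid peroxides, at 0.18 (adjusted p = 0.396, and 0.0494 with left hippocampi alone) and Pgd, an NADPH-producing enzyme of the pentose phosphate pathway, at -0.14 (adjusted p = 0.398). The median log2 fold changes of these groups were 0.02, 0.09, 0.09, 0.06 and 0.00. Between males and females, 0 of 51 genes passed in edgeR or DESeq2, with 2 at an unadjusted p below 0.05, and 0 passed the test of the interaction of sex with diet, with 1 at an unadjusted p below 0.05 in edgeR and 0 in DESeq2. In edgeR, 0.0425% of all genes passed the test of sex and 0.0% that of the interaction, so these counts show nothing particular to the list.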

How the data were processed

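RNA of 17 rat hippocampi (13 left and 4 right) was sequenced as stranded mRNA libraries. The authors trimmed reads with fastp, aligned them with Bowtie2 2.4.2 to mRatBN7.2 and counted fragments on exons with featureCounts 2.0.1 at a mapping quality of at least 10, allowing a read to count for several features. The strand setting of the counting and the annotation release were not given in the sources used here. The deposited values are estimated counts, namely the mean of 3 technical replicates per rat, which were rounded here. Deposited totals were 10853947 to 17498392 fragments (median 13538433). Columns carry animal names, which were tied to labels through the study's own table.

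The 10 genes, the lists and the tests were chosen with earlier results of these data known. Counts were scaled by TMM, filtered by filterByExpr and fitted pairwise by edgeR 4.0.16 (glmQLFit, glmQLFTest, R 4.3.3) in the study's final 14 libraries (4 ET, 5 PF and 5 AD), over 16068 genes for ET against PF, 15749 for ET against AD and 15960 for PF against AD, with Benjamini-Hochberg adjustment and a threshold of 0.05. The study's threshold (adjusted p below 0.01 and log2 fold change above 1.5) was also applied. Intervals are 95%. Sex and its interaction with diet were fitted over ET and PF. Correlations used log2(normalized count + 1) and exact permutation within diets. Genes named besides the 10 were list genes that passed, the 5 most and 5 least like Nqo2, and the 3 nearest genes on each side with a mean of at least 10 normalized counts; Prdx6, Pgd and Serpinb6a's overlap were singled out after values were seen. Gene symbols of the table matched the RefSeq list for 84.1%. Promoter sequences are RefSeq, GRCr8. The overlap of annotated genes (Nqo2 with Serpinb6a, Hmox1 with LOC134483111, and Txnrd1 with Eid3 and 3 LOC genes) leaves those counts uncertain. No pair of libraries of 1 diet agreed within sampling noise (40 pairs, smallest chi-square per gene 2.88). Scripts were tested on simulated data. Alternatives were DESeq2 1.42.0, median-of-ratios scaling, no filter, all 17 libraries, labelled sex as a covariate, 1 fit of 3 diets, left hippocampi, a replicate block and leaving out each library.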

Additional observations from a re-analysis of the deposited data

Results flagged for a closer look

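In each diet and for each of the 10 genes, the gap between the extreme rat and the rat nearest to it was divided by the range of all rats of that diet, the 3 libraries outside the final set included. Of 30 such groups, 4 exceeded Dixon's 95% critical value, where chance gives about 1 in 20.

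For Nqo2 in PF the ratio was 0.789, from animal 11f6 with 72.3 normalized counts against at most 29.7 in the others. For Keap1 in PF it was 0.777, from replicate 6 with 872 against at most 714. For Slc7a11 in ET it was 0.713, from replicate 1 with 1061.4 against at least 2058.9. For Hmox1 in AD it was 0.679, from replicate 6 with 89.7 against at most 77.6. The 4 ratios came from 4 different rats.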

How the results depend on the processing

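In 495 alternative values of the log2 fold changes of the 9 other genes, 1 passed an adjusted p of 0.05 (Keap1 in PF against AD with left hippocampi alone, -0.23, which makes 1 of the 9 genes, where 5.55% of all genes were called), 32 had the other sign than the reported value, and the largest size was 0.29. For Nqo2, the log2 fold change in ET against PF was 1.23 with all 17 libraries, 1.30 with all 17 and a term for the 3 added libraries (an alternative added after seeing the data) and 1.97 with the replicate block, and in PF against AD it was -0.60 and -0.69 in the first 2 of these. Leaving out 1 rat gave 1.57 to 1.72 for ET against PF, 0.55 to 0.70 for ET against AD and -1.11 to -0.95 in PF against AD. The number of pathway list genes called was 1 with the replicate block in ET against PF, where Ugt1a6 was lost, and 3 with left hippocampi alone, where Prdx6 was added. In ET against AD it was 2 with DESeq2, with 1 fit of all 3 diets, with all 17 libraries and with all 17 and the term, and 0 with the replicate block, where Akr1b10 was lost. In PF against AD it was 2 to 3 without 1 rat. These counts are not set beside the share of all genes called in each setting, so they are no result about the list. The cause of these shifts was not tested. Same-numbered rats correlated at -0.02 to 0.58 between ET and PF, -0.24 to 0.14 between ET and AD and -0.08 to 0.12 between PF and AD, so the numbers were not treated as pairs, and the block changed no call of the 9 genes. The block fits rest on 2 same-numbered pairs of ET and PF, 3 of ET and AD and 4 of PF and AD, and PF animal 11f5 was left out. A call lost with the block may thus reflect the few pairs. With 4 or 5 rats of 1 litter per diet, small differences could not be resolved in Slc7a11, whose interval was the widest of the 9 genes when ET was compared with PF or with AD.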
